A study of Mus musculus with 28 samples.

Results

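The guanylate-binding proteins of the mouse were followed through 10 genes, Gbp2, Gbp2b, Gbp3, Gbp4, Gbp5, Gbp6, Gbp7, Gbp8, Gbp9 and Gbp10, chosen by name from the 55341 gene rows of the count tables. All 10 were found, and all 10 passed the filter on low counts in each comparison. RNA came from 28 whole subcutaneous tumors of AB1-HA, a BALB/c mouse mesothelioma line that carries the influenza hemagglutinin gene, grown in female BALB/c.AusBP mice aged 8 to 10 weeks. Since all tumors were grown from this 1 line, its clone and its added antigen are common to every group. Treatment began at a tumor area of about 20 to 25 mm² and tumors were harvested 7 days later. The PBS group (n = 4) had vehicle. The ICB group (n = 5) had immune checkpoint blockade, which was anti-CTLA-4 at 100 µg in 1 dose and anti-PD-L1 at 100 µg in each of 3 doses. The 5-FU group (n = 5) had the antimetabolite 5-fluorouracil at 75 mg/kg into a vein, and the cisplatin group (n = 4) had the platinum drug at 6 mg/kg into the peritoneum. The 5-FU+ICB and cisplatin+ICB groups (n = 5 each) had the same drug dose with the same antibodies.

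Guanylate-binding proteins are large GTPases that cells make in quantity after interferon, above all interferon gamma from T cells and NK cells. They assemble on the vacuoles and membranes of intracellular bacteria and parasites, open them to further attack, and help caspase-11 and the inflammasomes to sense their contents. Some members, among them those encoded by Gbp2, Gbp2b and Gbp5, carry a prenyl lipid that anchors them to membranes. In tumors their transcripts are commonly read as a sign of interferon signaling, whether in the tumor cells, stroma or infiltrating leukocytes.

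The genes form 2 clusters in GRCm38. Gbp5, Gbp7, Gbp3, Gbp2b and Gbp2 follow each other on the plus strand of chromosome 3, from base 142493978 at the start of Gbp5 to base 142638008 at the end of Gbp2. Gbp8, Gbp9, Gbp4, Gbp10 and Gbp6 lie on the minus strand of chromosome 5, from base 105014150 in Gbp8 to base 105293698 in Gbp6. The promoters of the 5 chromosome 3 genes, the members with an entry in the promoter table, are printed to show the interferon-related motifs they hold. They are RefSeq sequences of assembly GRCm38.p6, each of 300 bases, from 250 bases before to 50 bases after the annotated start, on the plus strand. The windows are chr3:142620413-142620712 for Gbp2, chr3:142594597-142594896 for Gbp2b, chr3:142559794-142560093 for Gbp3, chr3:142496684-142496983 for Gbp5 and chr3:142530086-142530385 for Gbp7. Capitals mark matches to 2 interferon-related motifs searched on both strands, the core of the interferon-stimulated response element (GAAA, any 2 bases, GAAA) and the gamma-activated site (TTCNNNGAA).
Gbp5: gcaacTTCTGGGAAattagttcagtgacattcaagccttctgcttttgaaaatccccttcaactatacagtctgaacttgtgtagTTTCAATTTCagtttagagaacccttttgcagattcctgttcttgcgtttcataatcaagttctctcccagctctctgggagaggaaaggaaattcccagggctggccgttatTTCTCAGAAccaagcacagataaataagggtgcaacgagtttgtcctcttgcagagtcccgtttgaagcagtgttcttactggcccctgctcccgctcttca
Gbp7: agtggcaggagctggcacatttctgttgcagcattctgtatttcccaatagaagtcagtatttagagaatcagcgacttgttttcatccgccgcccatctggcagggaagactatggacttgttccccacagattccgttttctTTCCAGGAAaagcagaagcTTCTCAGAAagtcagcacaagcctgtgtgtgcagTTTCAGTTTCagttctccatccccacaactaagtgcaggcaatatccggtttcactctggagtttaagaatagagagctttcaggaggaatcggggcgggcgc
Gbp3: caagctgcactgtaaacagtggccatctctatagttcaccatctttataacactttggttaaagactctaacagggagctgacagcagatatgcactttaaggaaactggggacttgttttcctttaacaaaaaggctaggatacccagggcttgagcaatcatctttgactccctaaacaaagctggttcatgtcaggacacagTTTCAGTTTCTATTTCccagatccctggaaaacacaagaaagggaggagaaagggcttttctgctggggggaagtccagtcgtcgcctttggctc
Gbp2b: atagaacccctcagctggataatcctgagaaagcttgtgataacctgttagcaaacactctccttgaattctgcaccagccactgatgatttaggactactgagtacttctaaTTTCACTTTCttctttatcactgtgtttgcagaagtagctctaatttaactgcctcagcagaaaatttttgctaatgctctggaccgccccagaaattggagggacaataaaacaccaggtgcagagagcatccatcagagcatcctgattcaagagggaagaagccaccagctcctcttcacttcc
Gbp2: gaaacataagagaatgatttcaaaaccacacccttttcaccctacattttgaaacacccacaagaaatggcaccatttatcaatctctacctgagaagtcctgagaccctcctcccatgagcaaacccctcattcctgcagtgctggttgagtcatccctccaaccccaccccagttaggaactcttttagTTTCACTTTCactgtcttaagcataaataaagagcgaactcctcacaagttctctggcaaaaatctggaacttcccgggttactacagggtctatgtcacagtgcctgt

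Each of these 5 promoters held the response element core, in all cases on the minus strand. Among 32851 mouse promoter windows of this length, 3.44% held it. Counted from the start, the first base of the match lay at position -59 in Gbp2, -137 in Gbp2b, -165 in Gbp5 and -53 in Gbp7. Gbp3 had 2 matches, at positions -45 and -39, which overlapped each other. Gbp5 and Gbp7 also held 2 gamma-activated site matches each, against 8.3% of all windows with at least 1, and 0.454% of all windows held both motifs. No gamma-activated site was found in the windows of Gbp2, Gbp2b and Gbp3, which says only that these letters are not in those windows. A further RefSeq start of Gbp3 held neither motif. A match is a description of the letters and not a site of binding. Promoters of Gbp4, Gbp6, Gbp8, Gbp9 and Gbp10 were not analysed here.

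Library depth was 23541733 to 33950805 estimated counts per tumor, and the lowest count of any member in any tumor was 92.4, for Gbp8. Levels are given as CPM, that is, counts relative to the TMM-scaled total of the library. A differentially expressed gene (DEG) had an adjusted p-value under 0.05 over all genes tested, by edgeR's quasi-likelihood test after Benjamini-Hochberg adjustment, and an absolute log2 fold change over 0.5. Beside each count of members stands the percentage of all genes tested that met the same rule. All comparisons with PBS or ICB share the same PBS and ICB tumors, and p-values measure the spread between tumors. Mesothelial markers were checked first. Msln, the mesothelin gene, was at 271 to 358 CPM in the PBS tumors, whereas Wt1 was at most 2.78 CPM in any tumor and Upk3b was listed at 0 in most. Whether values come from more cells of a type or from more RNA per cell cannot be told apart in whole tumors.

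A pair of tumors stood apart from their groups. 5-FU+ICB replicate 5 had Msln at 0.5 CPM, against 34.4 to 167 in the other 4 tumors of its group, and the summed CPM of 4 B cell markers was 770, against 13.4 to 30.0. Cisplatin+ICB replicate 1 had Msln at 654 CPM, against 130 to 266 in the other 4, a summed T cell marker level of 20.9 CPM, against 39.5 to 348, and a summed fibroblast marker level of 314 CPM, against 1406 or more. For the family members, the fold changes without these tumors stand beside the comparisons that use them. The results for pathway genes and cell type markers, and the correlations over all tumors, include these tumors. They are not given without them.

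Across the 28 tumors the family went from a small to a large share of the transcripts. The 10 genes took 0.0502% ± 0.00739 of the counts in PBS tumors (SD, n = 4), 0.0692% ± 0.0234 after cisplatin (n = 4) and 0.202% ± 0.0849 after 5-FU (n = 5). With checkpoint blockade the share was 0.492% ± 0.0892 for ICB alone, 0.400% ± 0.124 for 5-FU+ICB and 0.319% ± 0.209 for cisplatin+ICB (n = 5 each). The spread of cisplatin+ICB ran from 0.0382% to 0.512%, which spans the PBS tumors and part of the ICB range. For 9 of the 10 members the group means of log2 CPM had a single order, from PBS through cisplatin, 5-FU, cisplatin+ICB and 5-FU+ICB to ICB. Gbp9 differed, with 5-FU above cisplatin+ICB and 5-FU+ICB above ICB. Neighbouring groups in this order overlapped for most members. PBS and cisplatin overlapped for all 10, where 1.53% of all genes separated higher and 1.91% lower after cisplatin, and among the 9 members with the common order, the remaining neighbours separated only between cisplatin and 5-FU, for Gbp2b, Gbp3 and Gbp6 (5.29% of all genes). In all 10 members, Gbp9 included, every 5-FU tumor was below every ICB tumor, as in 7.11% of all genes.

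**Figure D1:**
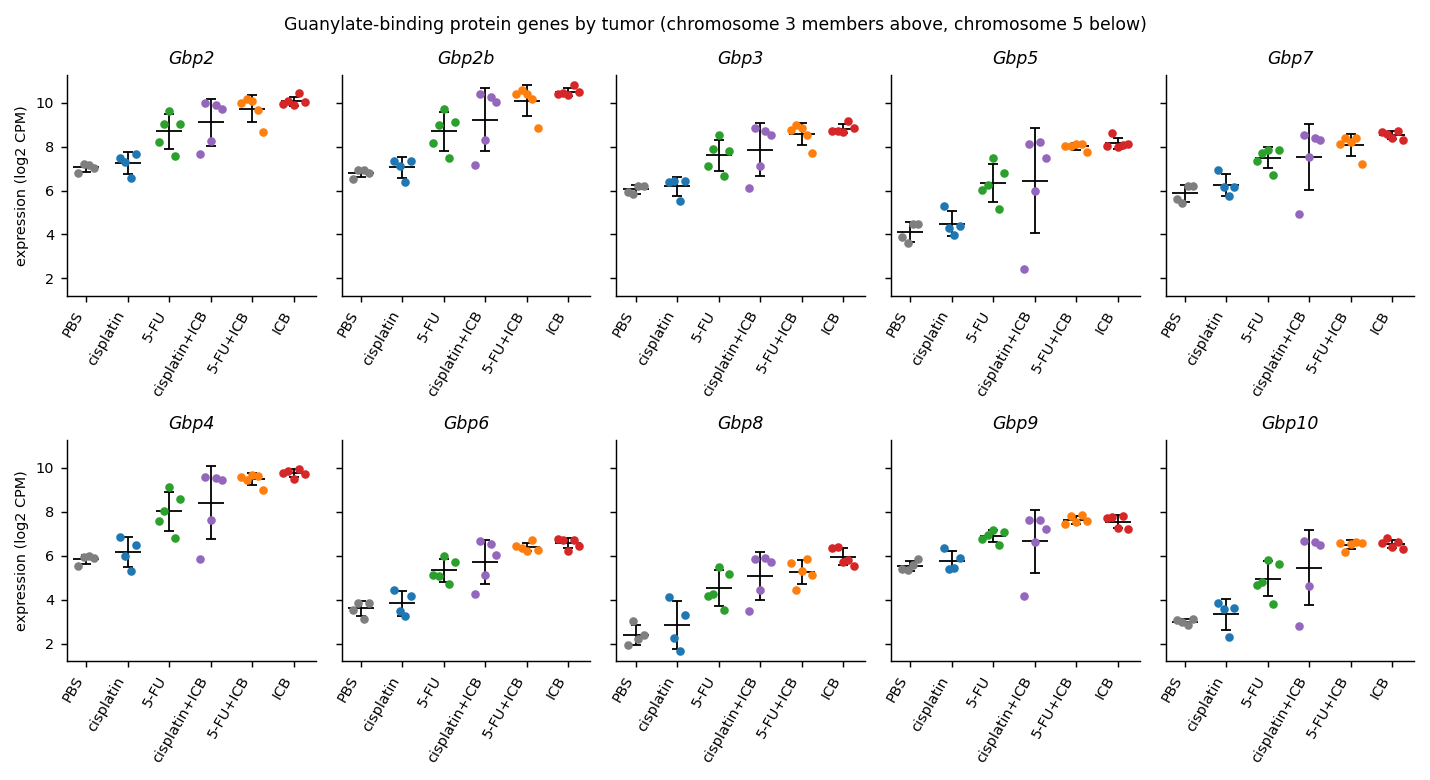
Expression of the 10 genes in each tumor as log2 CPM, with groups on the horizontal axis, a point for each of the 28 tumors, and the group mean and SD as black lines. The PBS points are lowest or nearly so in every panel, ICB points are high and tight, and cisplatin+ICB points are split, with 3 tumors high, replicate 3 in between and replicate 1 near the PBS level or below it.

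Gbp2b and Gbp2 were the most abundant members. Per kilobase of the longest coding transcript, Gbp2 had 53.0 ± 6.56 CPM and Gbp2b 39.4 ± 4.80 in PBS tumors (SD, n = 4), followed by Gbp3 at 24.8 ± 3.18, and the lowest were Gbp10 at 2.26 ± 0.192 and Gbp8 at 2.2 ± 0.778. In ICB tumors the order at the top was reversed, with Gbp2b at 514 ± 71.0 and Gbp2 at 428 ± 65.9 CPM per kilobase (n = 5), and Gbp4 at 193 ± 22.0 stood above Gbp3 at 169 ± 25.9.

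Gbp2b, known in older work as Gbp1, acts at parasite vacuoles. Its level was 92.8, 122, 121 and 109.6 CPM in the PBS tumors and 1331, 1396, 1315, 1802 and 1413 CPM in the ICB tumors. After 5-FU it was 289, 502, 835, 176 and 553 CPM, and after cisplatin 163, 139, 83.1 and 162 CPM. In the combinations it was 1356, 1511, 1347, 1162 and 459.5 CPM for 5-FU+ICB and 142, 1341, 316, 1238 and 1041 CPM for cisplatin+ICB. Every ICB and 5-FU tumor thus lay above every PBS tumor, the cisplatin tumors overlapped PBS, and replicates 1 and 3 of cisplatin+ICB lay below the lowest 5-FU+ICB tumor.

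Gbp5, which promotes assembly of the NLRP3 inflammasome, was low in the untreated state. It had 14.8, 12.0, 22.2 and 22.3 CPM in PBS tumors against 263, 386, 251, 266 and 281 CPM in ICB tumors. The 5-FU tumors had 65.8, 76.3, 180.3, 35.7 and 109.6 CPM and the cisplatin tumors 39.1, 19.5, 15.8 and 20.9 CPM. In 5-FU+ICB the values were close together, at 263, 256, 278, 279 and 217 CPM, and in cisplatin+ICB they were far apart, at 5.41, 275, 63.6, 293 and 179.6 CPM. Gbp5 was thus the member with the largest SD of log2 CPM within cisplatin+ICB, at 2.40, and its replicate 1 was the lowest of all 28 tumors.

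Gbp4 lies in the chromosome 5 cluster and was its most abundant member. Its level was 46.3, 61.3, 63.9 and 60.3 CPM in PBS tumors and 872, 940.4, 732, 992 and 839 CPM in ICB tumors. The 5-FU tumors lay between these groups, at 193, 265, 553, 112 and 385 CPM. The 5-FU+ICB tumors, at 775, 702, 821, 796 and 516 CPM, overlapped ICB, and the cisplatin tumors, at 116, 64.2, 39.4 and 90.5 CPM, overlapped PBS. Cisplatin+ICB gave 57.3, 769.9, 199, 741 and 707 CPM, so its replicate 1 lay within the PBS range.

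Gbp9, also of chromosome 5, had the smallest fold change of the 10 members in each of the ICB, 5-FU, 5-FU+ICB and cisplatin+ICB groups against PBS. It was at 41.9, 41.3, 47.4 and 58.1 CPM in PBS tumors and at 210.3, 219.7, 152, 226 and 147 CPM in ICB tumors. The 5-FU tumors had 109, 125, 146, 89.1 and 137 CPM, and the cisplatin+ICB tumors 17.8, 197, 100.4, 197 and 148 CPM. Every 5-FU tumor was above every PBS tumor and below every ICB tumor. Gbp8, the member with the lowest mean CPM in every group, had 3.81 to 8.17 CPM in PBS tumors, 47.0 to 84.7 in ICB tumors and 21.7 to 58.3 in 5-FU+ICB tumors. Per kilobase, Gbp10 was lower than Gbp8 in 5-FU and cisplatin tumors.

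The first question was what checkpoint blockade alone did to the family. All 10 genes rose in ICB tumors, Gbp5 the most, with a log2 fold change of 4.07 ± 0.38 (SE), and Gbp9 the least, at 2.05 ± 0.19. Gbp4 rose by 3.95 ± 0.37 and Gbp2b by 3.73 ± 0.41, 15.4-fold and 13.3-fold. The chromosome 5 members Gbp8 and Gbp10 each rose by 3.58, with SE of 0.43 and 0.33, Gbp2 by 3.04 ± 0.36, Gbp6 by 2.98 ± 0.27, Gbp3 by 2.80 ± 0.32 and Gbp7, which restricts intracellular parasites and bacteria, by 2.67 ± 0.27. The adjusted p-values were 6.16e-06 to 5.50e-05 by edgeR's quasi-likelihood test after Benjamini-Hochberg adjustment. Among all 17916 genes tested, 19.0% were DEGs with higher levels in ICB and the median log2 fold change was -0.03, against 3.31 over the members. No ICB tumor overlapped a PBS tumor in any of the 10 genes, a separation shown by 15.8% of all genes in this direction.

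With 5-FU alone all 10 genes also rose, to an intermediate level. Gbp5 rose by 2.43 ± 0.35 and Gbp4 by 2.40 ± 0.34 on the log2 scale, which is 5.37-fold and 5.28-fold, Gbp8 by 2.27 ± 0.41, Gbp2b by 2.10 ± 0.38 and Gbp9 by 1.38 ± 0.18. The median over the members was 1.95 and over all genes -0.01. The adjusted p-values ranged from 0.00048 to 0.00398 by edgeR's quasi-likelihood test after Benjamini-Hochberg adjustment. DEGs higher in 5-FU made up 9.98% of the 17916 genes tested. All 10 members separated the 5-FU from the PBS tumors, as did 9.27% of all genes. ICB against 5-FU was not tested.

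Cisplatin alone gave no such rise. The log2 fold changes ran from 0.19 ± 0.42 for Gbp3 to 0.71 ± 0.52 for Gbp8, and 0 of the 10 members were called, with 0% of the 17819 genes called by edgeR's quasi-likelihood test. None of the 10 had an unadjusted p under 0.05, against 1.78% of genes, and DESeq2 called 0 members and 0.0114% of genes. The 95% interval of Gbp5 reached from -0.999 to 1.85 and that of Gbp9 from -0.69 to 1.25, so changes of the size seen with 5-FU in Gbp5 and Gbp9 (2.43 and 1.38) lay above these intervals. Cisplatin replicate 1 was above the PBS range in all 10 members and replicate 3 was below or within it in all 10. Replicate 4 was above it in 8 and replicate 2 in 5, and neither was below it in any.

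Setting the drugs against each other, in a fit over all 28 tumors, all 10 members had higher values after 5-FU, with log2 fold changes from 1.09 ± 0.38 for Gbp9 to 1.97 ± 0.61 for Gbp5. None passed edgeR's quasi-likelihood test after Benjamini-Hochberg adjustment, the adjusted p-values being 0.0583 to 0.170, and 0.0918% of the 18521 genes were DEGs in this direction. All 10 had an unadjusted p under 0.05, against 15.5% of genes, and DESeq2 called 8, against 2.70%. The groups did not overlap in Gbp2b, Gbp3, Gbp6 and Gbp9, 4 members in all, and 5.29% of all genes separated in this direction. The call of this difference depended on the test.

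**Figure D2:**
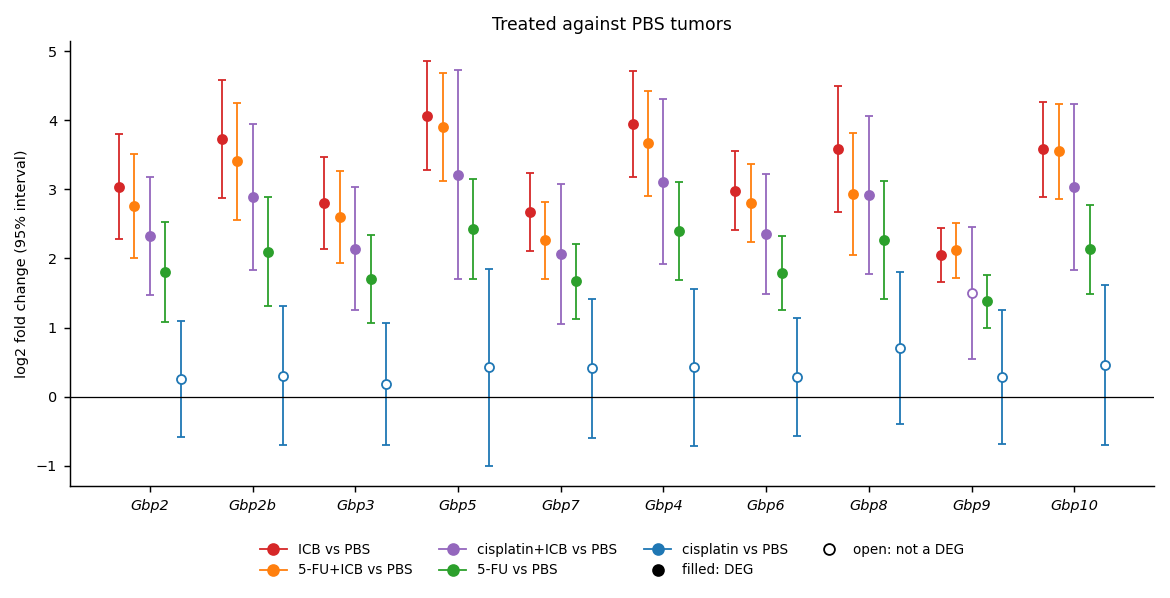
Log2 fold change of each member against PBS tumors for the 5 treatments, with 95% intervals from edgeR, filled where the gene was a DEG and open where it was not. Intervals of ICB, 5-FU+ICB and 5-FU lie above 0 for all 10 genes, those of cisplatin include 0 for all 10, and Gbp9 is the only open point of cisplatin+ICB.

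Adding ICB to either drug was compared first with PBS. In 5-FU+ICB tumors all 10 genes rose, from 2.12 ± 0.19 for Gbp9 to 3.90 ± 0.37 for Gbp5 on the log2 scale, with adjusted p-values of 1.15e-05 to 0.000257 by edgeR's quasi-likelihood test after Benjamini-Hochberg adjustment. DEGs higher in this group were 21.9% of all genes, and all 10 members separated from PBS, against 10.9% of genes. Without replicate 5 the range was 2.13 to 3.95 and all 10 were still called. In cisplatin+ICB tumors 9 of the 10 rose, led by Gbp5 at 3.21 ± 0.71, Gbp4 at 3.11 ± 0.57 and Gbp10 at 3.03 ± 0.57. Gbp9 had 1.5 ± 0.45, with an adjusted p of 0.0573 by edgeR's quasi-likelihood test. DEGs higher in cisplatin+ICB were 4.70% of the 17819 genes, and only 4 members separated from PBS, against 3.43% of genes.

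Replicate 1 of cisplatin+ICB was below the PBS range in Gbp5, Gbp7, Gbp9 and Gbp10, within it in 2 members and above it in 4. Without this tumor, all 10 members rose against PBS, by 1.86 to 3.62, with adjusted p-values of 0.000256 to 0.000775 by edgeR's quasi-likelihood test after Benjamini-Hochberg adjustment. In that fit 6277 of all genes were called, against 1087 with the tumor. Leaving out PBS replicate 1, 3 or 4 instead left 0 members and 0 genes called. With only these 2 groups in the fit 0 members and 0 genes were called, and with a replicate block 4 members among 95 genes.

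The next question was whether the combinations differed from ICB alone. 5-FU+ICB gave values close to ICB, from -0.66 ± 0.35 for Gbp8 to 0.07 ± 0.17 for Gbp9, a median of -0.24 over the members and 0.02 over all genes. Of the members 0 were called, with 0.229% of genes being DEGs in edgeR's quasi-likelihood test. Also 0 had an unadjusted p under 0.05 (10.9% of genes), and DESeq2 called 0 (1.68% of genes). The 95% intervals were -0.80 to 0.47 for Gbp5 and -0.28 to 0.42 for Gbp9. Those of Gbp8, -1.40 to 0.09, and of Gbp7, -0.89 to 0.08, lay mostly below 0. Without 5-FU+ICB replicate 5, which was below the ICB range in 7 members, the range was -0.61 to 0.08. Cisplatin+ICB was lower than ICB in all 10 fitted values, from -0.83 ± 0.43 for Gbp2b to -0.53 ± 0.41 for Gbp9, and 0 members were called, with 0% of genes called and adjusted p-values from 0.331 to 0.563 by edgeR's quasi-likelihood test. At an unadjusted p under 0.05 the count was 0 (15.9% of genes), and by DESeq2 it was 0 (0.260% of genes). Without cisplatin+ICB replicate 1 the values were -0.52 to -0.21. The groups overlapped in every member in both comparisons. Over all genes, 0.664% separated higher and 1.67% lower in 5-FU+ICB against ICB, and 0.196% higher and 1.28% lower in cisplatin+ICB against ICB.

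Against the drug alone, the fitted values were higher in both combinations, and no member was called by edgeR while DESeq2 called some. For 5-FU+ICB against 5-FU they ran from 0.59 ± 0.23 for Gbp7 to 1.47 ± 0.31 for Gbp5, with a median of 0.98. The adjusted p-values were 0.0807 to 0.349 by edgeR's quasi-likelihood test after Benjamini-Hochberg adjustment, with 0.0112% of genes called, while 9 members had an unadjusted p under 0.05, against 16.6% of genes, and DESeq2 called 6, against 2.46%. The groups did not overlap in 4 members, against 0.910% of genes. Leaving out 5-FU replicate 3, the 5-FU tumor with the highest family mean, gave 8 called members among 640 called genes in all, and leaving out 5-FU+ICB replicate 2 gave 6 among 1948. Without 5-FU+ICB replicate 5 the values were 0.71 to 1.53 and 0 members were called.

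For cisplatin+ICB against cisplatin the values were larger and more scattered, from 1.22 ± 0.45 for Gbp9 to 2.79 ± 0.70 for Gbp5. The adjusted p-values were 0.0693 to 0.210 by edgeR's quasi-likelihood test after Benjamini-Hochberg adjustment, with 0% of genes called. All 10 had an unadjusted p under 0.05, against 14.2% of genes, and DESeq2 called 9, against 3.83%. Without cisplatin+ICB replicate 1 all 10 were called, at 1.55 to 3.16, among 2114 genes in all, and without replicate 3 the count was 8 among 536. The groups overlapped in every member, whereas 1.18% of genes separated in this direction. 5-FU+ICB and cisplatin+ICB overlapped in every member, where 0.993% of genes separated higher and 0.923% lower in 5-FU+ICB. The differences were 0.01 ± 0.45 for Gbp8 to 0.66 ± 0.54 for Gbp5. By edgeR's quasi-likelihood test 0 members were called (0.297% of genes), with 0 at an unadjusted p under 0.05 (25.7% of genes) and 0 by DESeq2 (8.32% of genes). The range was 0.06 to 0.72 without 5-FU+ICB replicate 5 and -0.23 to 0.35 without cisplatin+ICB replicate 1.

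**Figure D3:**
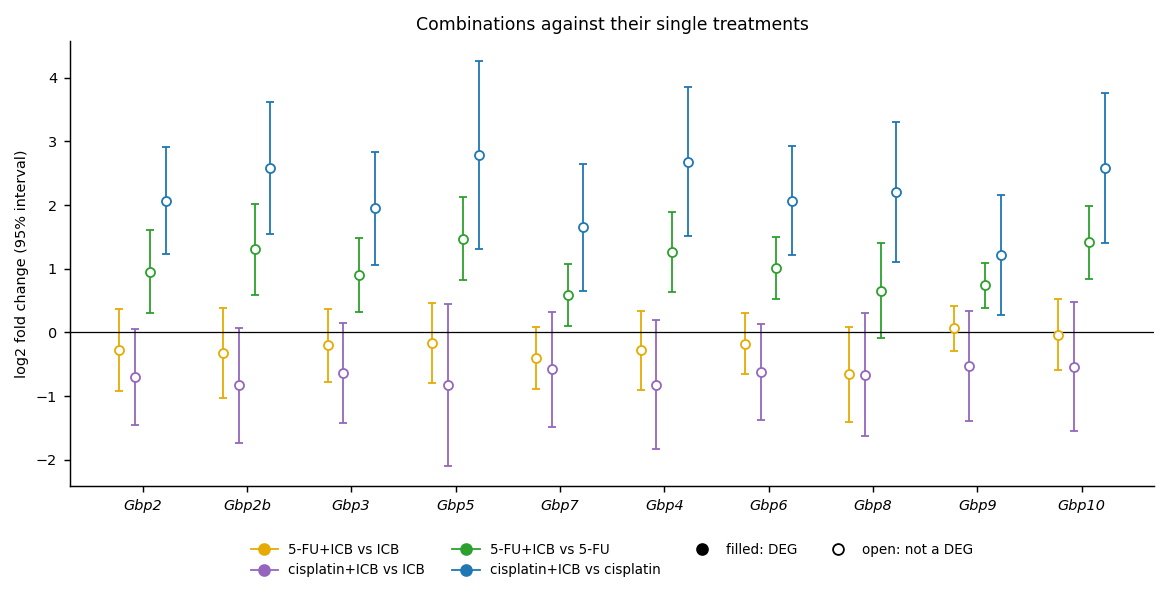
Log2 fold change of each member, with 95% intervals from edgeR, for the combinations against ICB and against the drug alone, all points open because no member was a DEG. Points against ICB lie near or below 0, and points against the drug alone lie above 0, those of cisplatin+ICB against cisplatin being the highest with the widest intervals.

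An interaction term asked whether the effect of 5-FU was the same with and without ICB. On the log2 scale 7 members, Gbp4, Gbp5, Gbp6, Gbp7, Gbp8, Gbp9 and Gbp10, had a smaller 5-FU effect in the presence of ICB, with differences from -1.31 ± 0.25 for Gbp9 to -2.93 ± 0.54 for Gbp8. For Gbp5, the 5-FU effect was 2.43 against PBS and -0.17 against ICB. Only 16 genes were called in all, 0.0893% of those tested, and 0.0781% in this direction, with adjusted p-values of the members from 0.0471 to 0.0496 by edgeR's quasi-likelihood test after Benjamini-Hochberg adjustment. Gbp2, Gbp2b and Gbp3 had -2.08, -2.42 and -1.90 with adjusted p-values of 0.0657, 0.0621 and 0.0657 by edgeR's quasi-likelihood test. The calls sit close to the threshold. Without 5-FU+ICB replicate 5 all 7 were lost, as was every other gene, with 0 genes called. The 10 members then had -2.88 to -1.30, with adjusted p-values of 0.0599 to 0.0874 by edgeR's quasi-likelihood test. In all, 13 of 19 fits that left out 1 tumor called 0 members, and at most 1 of all genes was called in any of these 13. Fits without PBS replicate 3 or 4, 5-FU replicate 4 or 5-FU+ICB replicate 4 called all 10 members, among 1698, 1017, 81 and 950 genes. DESeq2 called all 10, against 4.19% of genes. For cisplatin the term was -0.81 ± 0.62 to -1.37 ± 0.70, with 0 members and 0% of genes called by edgeR's quasi-likelihood test, 0 members at an unadjusted p under 0.05 (7.14% of genes) and 0 by DESeq2 (0.00285% of genes). Without cisplatin+ICB replicate 1 it was -1.11 to -0.52.

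Of the pathway genes, part rose in the groups where the family rose. The share of all genes called higher, against which the list counts are to be read, was 19.0% in ICB, 21.9% in 5-FU+ICB, 9.98% in 5-FU and 4.70% in cisplatin+ICB, and the share called lower was 18.8%, 18.7% and 13.0% in the first 3 of these. Ifng, the gene of interferon gamma, was at 0.343 ± 0.0952 CPM in PBS (n = 4), 13.1 ± 3.04 in ICB, 9.12 ± 3.34 in 5-FU+ICB, 6.99 ± 5.79 in cisplatin+ICB and 2.24 ± 1.79 in 5-FU tumors (SD, n = 5 each), and 0.505 ± 0.244 after cisplatin (n = 4). It rose by 5.26 ± 0.57 in ICB, 4.74 ± 0.55 in 5-FU+ICB, 4.34 ± 0.76 in cisplatin+ICB and 2.69 ± 0.52 in 5-FU tumors on the log2 scale. Irf1, an interferon-induced transcription factor, rose by 1.94 ± 0.24 in ICB, 1.51 ± 0.24 in 5-FU+ICB and 1.31 ± 0.29 in cisplatin+ICB, and had 0.54 ± 0.23 in 5-FU tumors with an adjusted p of 0.0894 by edgeR's quasi-likelihood test. Of 12 interferon gamma signaling genes, 9 rose in ICB, 10 in 5-FU+ICB, 5 in 5-FU and 5 in cisplatin+ICB, and 0 fell.

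The immunity-related GTPases, a family of interferon-induced GTPases that works beside the guanylate-binding proteins on pathogen vacuoles, had 7 of 8 genes tested. All 7 rose in ICB, 5-FU and 5-FU+ICB tumors and 6 in cisplatin+ICB tumors, with medians of 2.40, 1.44, 2.42 and 1.84. Tgtp1 led in ICB, at 3.39 ± 0.37, in 5-FU+ICB at 3.35 ± 0.37 and in cisplatin+ICB at 2.61 ± 0.49, and Iigp1 led in 5-FU at 1.69 ± 0.28. The other lists moved less. Of 9 caspase-11 and inflammasome genes, 5 rose and 1 fell in ICB, 1 rose in 5-FU, 3 rose and 1 fell in 5-FU+ICB and 2 rose in cisplatin+ICB. The single gene in 5-FU is near the share of all genes. Ninj1, which ruptures the membrane of dying cells, had the largest called change of that list in ICB, at 2.38 ± 0.49, in 5-FU+ICB, at 1.98 ± 0.48, and in cisplatin+ICB, at 1.45 ± 0.38, and Casp4, the gene of caspase-11, in 5-FU, at 0.61 ± 0.22. The gene that fell was Aim2, a DNA sensor, by 0.59 in ICB and by 0.63 in 5-FU+ICB.

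Of 6 prenylation enzymes, Fnta, a subunit that farnesyl and geranylgeranyl transferases share, fell by 0.87 in ICB, by 0.76 in 5-FU and by 0.86 in 5-FU+ICB, with SE of 0.16 in each, and 1 other rose in ICB, shares of the list near those of all genes. Of 10 ATG8 conjugation genes, which help guide these proteins to vacuoles, 2 rose in ICB, 2 fell in 5-FU, and 1 rose and 1 fell in 5-FU+ICB, counts higher that are near or below the shares of all genes. The largest called changes there were Atg7 at 0.94 ± 0.20 in ICB and 0.70 ± 0.20 in 5-FU+ICB, and Gabarapl2, which fell by 0.76 in 5-FU. In cisplatin tumors, in the combinations against ICB or against the drug, and in the drug comparisons, 0 genes of the 5 lists were called, where 0% to 0.362% of all genes were called.

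The genes most like the family were sought by Pearson's correlation with the mean log2 CPM of the 10 members over 28 tumors, among 18511 other genes. They were Gm43302 (r = 0.993), Igtp (0.991), Irgm2 (0.984), Cd274 (0.984) and Iigp1 (0.978). Igtp, Irgm2 and Iigp1 are immunity-related GTPases, and Cd274 encodes PD-L1, the target of an antibody given to the ICB groups. Ifng had rank 16 (0.960), Irf1 rank 36 (0.940) and Ptprc, which encodes the pan-leukocyte antigen CD45, rank 500 (0.838). Since 98.8% of the 100-base windows of Gm43302 occur in other genes, mainly Gbp6 and Gbp10, its rank is not independent of the members. With group means removed the values were 0.973 for Igtp, 0.847 for Ifng and 0.540 for Ptprc. Between the members themselves, the 45 pairs had r from 0.865 to 0.997 with a median of 0.956, and from 0.691 to 0.989 with group means removed. The points share libraries and group differences, and these values are given as description.

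T cell markers, and part of the other leukocyte markers, rose in the groups where the family rose. Marker counts are to be read against the shares of all genes called higher. These were 19.0% in ICB, 9.98% in 5-FU, 21.9% in 5-FU+ICB and 4.70% in cisplatin+ICB. Ptprc rose in ICB, 5-FU+ICB and cisplatin+ICB tumors but did not pass the test in 5-FU tumors. Summed over the 6 T cell markers, the level was 22.8 to 30.6 CPM in PBS, 160 to 638 in ICB, 34.2 to 393 in 5-FU, 44.9 to 1333 in 5-FU+ICB, 13.0 to 42.0 in cisplatin and 20.9 to 348 in cisplatin+ICB tumors, with all 6 markers higher in ICB and 5-FU+ICB, 5 in cisplatin+ICB and 4 in 5-FU tumors by edgeR's quasi-likelihood test. The 6 macrophage markers summed to 1349 to 2059 CPM in PBS, 2802 to 7724 in ICB, 1811 to 6221 in 5-FU, 1460 to 6605 in 5-FU+ICB, 847 to 1913 in cisplatin and 1726 to 3132 in cisplatin+ICB tumors, and 6, 2, 4 and 1 of them rose in ICB, 5-FU, 5-FU+ICB and cisplatin+ICB tumors. Of the 4 NK cell markers, which summed to 19.6 to 44.2 CPM in PBS and 66.5 to 127 in ICB tumors, 2 rose in ICB, 2 in 5-FU, 3 in 5-FU+ICB and 1 in cisplatin+ICB. Of the 4 B cell markers 3 rose in 5-FU+ICB, where replicate 5 carried the summed level (770 CPM), and 0 were called in the other treatments. Markers of other cell types differed as well, some in counts near the shares of all genes. The 3 fibroblast markers summed to 506 to 2052 CPM in PBS and 2189.7 to 4229.6 in 5-FU tumors, where all 3 rose, and 2 rose in 5-FU+ICB. Of the 4 endothelial markers, 1 rose in ICB, near the share of all genes, 2 in 5-FU and 4 in 5-FU+ICB. The 5 mesothelial markers summed to 333 to 476 CPM in PBS, 147 to 298 in ICB, 174 to 279 in 5-FU, 121 to 302 in 5-FU+ICB, 276 to 380.3 in cisplatin and 231 to 896 in cisplatin+ICB tumors. Msln made up most of this sum in PBS tumors. Of the 4 mesothelial markers tested, only Wt1, which was low in every tumor, was called higher in ICB, in 5-FU and in cisplatin+ICB. In ICB this count is near the share of all genes. In 5-FU+ICB Msln fell while Wt1, Krt19 and Pdpn rose. Replicate 5 of 5-FU+ICB had the lowest mesothelial sum of its group, at 121 CPM. It also had the highest T cell, endothelial and skeletal muscle sums (1333, 616 and 3969 CPM). The marker calls of 5-FU+ICB include this tumor. The 4 skeletal muscle markers summed to 89.8 to 149.9 CPM in PBS, 1.52 to 2871 in ICB, 7.12 to 1189 in 5-FU and 2.11 to 3969 in 5-FU+ICB tumors, and the 3 keratinocyte markers reached 429.8 CPM in ICB replicate 2, with 0 of either list called. None of the T cell, macrophage, NK cell, B cell, fibroblast and endothelial markers was at 0 throughout a group, and the part of all these markers in the result was not tested.

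Individual tumors show where the family and the leukocyte transcripts parted. 5-FU+ICB replicate 2 had Ptprc at 105.1 CPM, just under the highest PBS tumor at 105.2, a T cell sum of 44.9 CPM and an Ifng level of 4.34 CPM. Its mean member level was 8.04 log2 CPM, against 8.03 to 8.41 in ICB tumors. Of its members, 6 lay within the ICB range, 3 below it (Gbp4, Gbp8 and Gbp10) and 1 above it. In 5-FU+ICB replicate 5, with the highest Ptprc of all tumors at 722.5 CPM and the highest T cell sum, Ifng was at 12.4 CPM, the highest of its group, and the mean member level was 7.47, below every ICB tumor. Cisplatin+ICB replicate 3 had Ifng at 0.913 CPM and a mean member level of 6.57, inside the 5-FU range of 5.90 to 7.68, and all 10 of its members were above the PBS range. Replicate 1 had Ifng at 0.848 CPM, above the PBS maximum of 0.407, while its mean member level of 4.88 lay within the PBS range of 4.82 to 5.19.

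**Figure D4:**
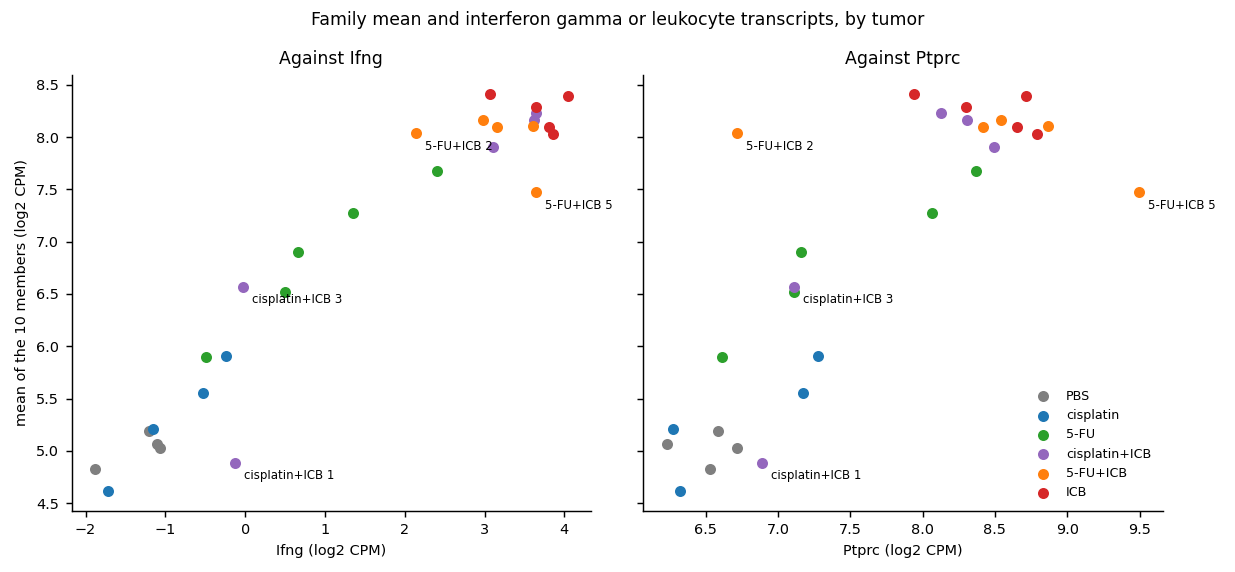
Mean log2 CPM of the 10 members in each of the 28 tumors against log2 CPM of Ifng (left) and of Ptprc (right), coloured by group, with 4 tumors named. The points lie closer to a common line for Ifng (r = 0.960) than for Ptprc (r = 0.838), and 5-FU+ICB replicate 2 is high in the family at a Ptprc level of the PBS tumors.

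The balance between members also shifted. The ratio of Gbp2b to Gbp2 counts was 0.818 to 0.856 in PBS, 0.798 to 0.910 in cisplatin, 0.914 to 1.07 in 5-FU, 1.13 to 1.42 in 5-FU+ICB and 1.31 to 1.40 in ICB tumors. In cisplatin+ICB tumors it was 0.711 in replicate 1, the lowest of all, 1.03 in replicate 3 and 1.24 to 1.32 in the other 3. The PBS, 5-FU and ICB ranges did not overlap. This ratio was chosen after its values were seen and was not tested.

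Genes can share reads, with paralogs or with other loci, and the degree differed between members. Of the 100-base windows of each gene's GENCODE M21 transcripts, 100 bases being the read length, 0% occurred in another gene for Gbp2 and Gbp2b, 0.142% for Gbp5, 0.694% for Gbp3, 1.64% for Gbp4, 1.65% for Gbp9, 4.39% for Gbp8 and 10.0% for Gbp7. For Gbp7 most of it, 9.59%, was shared with Gm43802, and that of Gbp5 with 2 genes outside the family. For Gbp6 the share was 64.5% and for Gbp10 73.5%, most of it shared with each other and with Gm43302, a gene annotated across both, in which 98.8% of windows occur elsewhere. Counts of Gbp6, Gbp10 and Gm43302 are therefore uncertain as separate values. Gm43302 itself, at 34.7 ± 3.70 CPM in PBS and 270.2 ± 36.8 in ICB tumors, rose by 2.99 ± 0.27, against 2.98 for Gbp6 and 3.58 for Gbp10.

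Shared stretches of 31 bases, the word length of the authors' counting tool, made up 4.15% of Gbp2b and 4.85% of Gbp2, almost all with each other. In 26 of 28 tumors the estimated counts of Gbp2 and Gbp2b were not whole singly but summed to a whole number within 0.001, so reads were divided between this pair. Gbp8, Gbp9 and Gbp4 overlap each other in the annotation on the same strand. A further row of the family, Gbp11, annotated as a polymorphic pseudogene, had 3.49 ± 0.424 CPM in PBS and 38.5 ± 15.9 in ICB tumors and rose by 3.50 ± 0.31, by 2.19 ± 0.29 in 5-FU, by 3.29 ± 0.31 in 5-FU+ICB and by 2.80 ± 0.56 in cisplatin+ICB tumors.

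**Figure D5:**
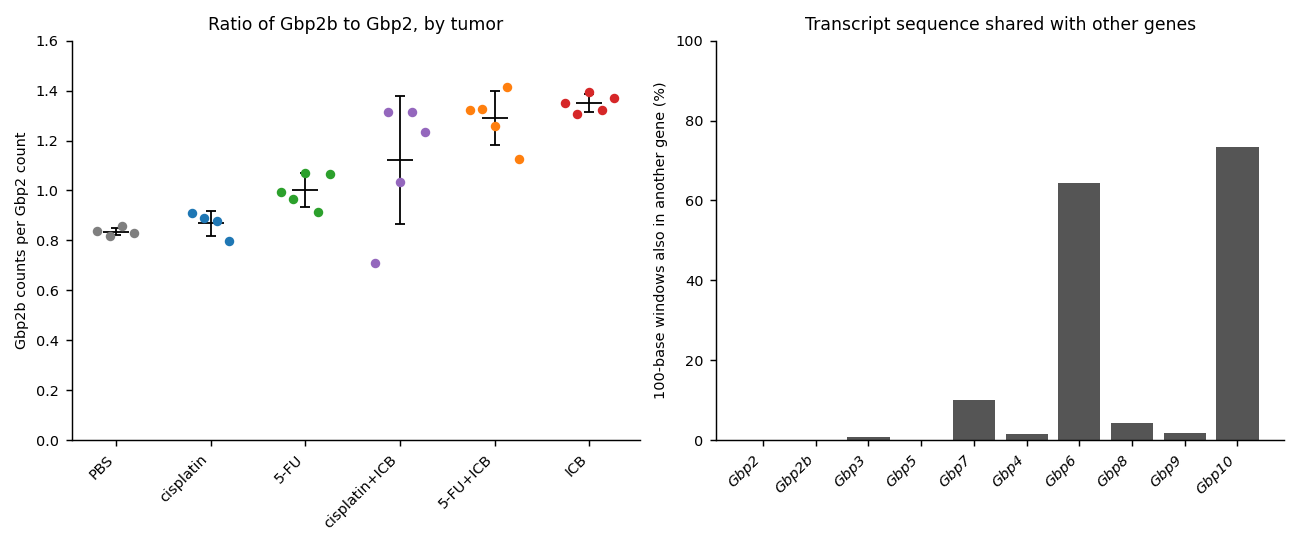
Left, the ratio of Gbp2b to Gbp2 counts in each tumor by group, with mean and SD. Right, the percentage of 100-base transcript windows of each member that also occur in another gene, which is 0 for Gbp2 and Gbp2b and highest for Gbp6 (64.5%) and Gbp10 (73.5%).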

How the data were processed

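RNA from 28 whole tumors was sequenced as 100-base single-end reads. The authors deposited estimated counts per gene, not whole in 23.7% of values, from kallisto 0.46.0 summarised with tximport on GRCm38/mm10, in a table for the 5-FU groups and a table for the cisplatin groups. Both tables hold the 9 tumors of the PBS and ICB groups, with identical values. Estimated counts were rounded, filtered with filterByExpr and scaled by TMM, and tested with edgeR 4.0.16 (glmQLFit and glmQLFTest, R 4.3.3) on group only, separately for each table (17916 and 17819 genes). Comparisons between drugs used all 28 tumors (18521 genes). Adjusted p-values (Benjamini-Hochberg over all genes tested) under 0.05 with an absolute log2 fold change over 0.5 defined a DEG. Log2 CPM used a prior count of 2. The scripts were tested on simulated counts, in which DESeq2 recovered more of the changed genes than edgeR and also made a larger share of false calls. There 200 genes were changed by 2 log2 units, and counts were drawn with the spread that edgeR had estimated. That setting differs from the real tumors, so it does not decide between the calls of the 2 tests.

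The genes named in the text are the 10 members, other genes named Gbp with a number, Ifng, Irf1, the called gene with the largest change in each pathway list, and the 5 genes most like the family. A further gene that the rule names is not reported here. Marker genes, Aim2 and the single tumors described were chosen after their values were seen. The members and lists were chosen with earlier results of these data known.

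Alternatives were DESeq2 1.42.0, its size factors in edgeR, no filter, a replicate block, only the groups compared, all 6 groups joined, and leaving out each tumor. Depth was 23541733 to 33950805 counts per tumor.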

Additional observations from a re-analysis of the deposited data

Results flagged for a closer look

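Of the 60 combinations of a member and a treatment group, 8 held a tumor far from the others of its group in log2 CPM. Chance flags about 1 in 20 of single combinations. The members share the same tumors and correlate within groups (r from 0.691 to 0.989). The combinations are thus not independent, and no excess over that rate can be read from the count. In ICB tumors, Gbp2b was high in replicate 4 at 10.82, with the nearest tumor at 10.46, and Gbp5 was high in replicate 2 at 8.59, with the nearest at 8.14. In 5-FU+ICB tumors, replicate 5 was low in Gbp2b at 8.84, against 10.18 for the nearest, and in Gbp7 at 7.22, against 8.11, and replicate 2 was low in Gbp10 at 6.17, against 6.55. In cisplatin+ICB tumors, replicate 1 was low in Gbp7 at 4.93, against 7.52, and in Gbp9 at 4.16, against 6.65. In cisplatin tumors, replicate 3 was low in Gbp3 at 5.54, against 6.37.

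The effect of 5-FU differed with and without ICB, by the interaction term, in 7 members. With the replicate block, with all 6 groups joined and in 13 of 19 fits without 1 tumor, 0 members were called. In those fits at most 1 of all genes was called. The differences on the log2 scale were -2.59 for Gbp5, -2.08 for Gbp7, -2.68 for Gbp4, -1.97 for Gbp6, -2.93 for Gbp8, -1.31 for Gbp9 and -2.17 for Gbp10.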

How the results depend on the processing

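The 10 members called in ICB, in 5-FU and in 5-FU+ICB against PBS were 10 under each alternative run, including each tumor left out. Other counts moved. For 5-FU+ICB against 5-FU, 0 members became 6 by DESeq2 and 0 to 8 with a tumor left out. For cisplatin+ICB against PBS, 9 became 4 with the replicate block, 0 with only these 2 groups in the fit, and 0 to 10 with a tumor left out, 0 without PBS replicate 1, 3 or 4. For cisplatin+ICB against cisplatin, 0 became 9 by DESeq2 (783 genes in all), 5 with all 6 groups joined (27 in all) and 0 to 10 with a tumor left out. For the 5-FU interaction, 7 became 0 with the replicate block, 0 with all 6 groups joined, and 0 to 10 with a tumor left out. All genes called there went from 16 to 0, 0 and 0 to 1698. For 5-FU against cisplatin, 0 became 8 by DESeq2 and 8 with only these 2 groups, while all genes called went from 67 to 663 and 943. Values near 0 changed sign. Gbp8 in 5-FU+ICB against cisplatin+ICB was -0.0073 with DESeq2 size factors, -0.0046 with no filter, -0.0058 by DESeq2, -0.0407 with only these 2 groups, and -0.231 to 0.186 with a tumor left out. Gbp7 there was -0.109 to 0.365 with a tumor left out, negative without cisplatin+ICB replicate 1. In 5-FU+ICB against ICB, with a tumor left out, Gbp9 was -0.0224 to 0.129 and Gbp10 -0.0975 to 0.0529. The cause was not tested. Over all genes, DEGs of 5-FU against PBS went from 4115 to 2469 with no filter and 825 with all groups joined. Those of cisplatin+ICB against PBS went from 1087 to 624 with no filter, 95 with the block, 2156 by DESeq2 and 0 with only 2 groups. The labels do not say that a replicate number pairs tumors, and the lowest correlation of same-numbered tumors was negative in each of the 11 comparisons, although the median was 0.348 in cisplatin+ICB against PBS and 0.187 in 5-FU+ICB against 5-FU. Shared sequence makes the separate counts of Gbp6 and Gbp10 uncertain.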
